A study of Mus musculus with 36 samples.

Results

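Axon guidance ligands and receptors were followed in mouse embryonic stem cells (ESCs) and in the neural stem cells (NSCs) made from these, with and without the TET dioxygenases. The members are all genes named as ephrins (Efn), Eph receptors, semaphorins (Sema), plexins (Plxn), neuropilins (Nrp), Slits, Robos, netrins (Ntn, Ntng), Unc5 receptors or Dcc. Of 19426 genes in the deposited RNA-seq tables, 70 matched, of which 37 are ligands and 33 are receptors. By system they were 21 ephrins and Eph receptors, 31 semaphorins, plexins and neuropilins, 7 Slits and Robos, and 11 netrins with their receptors. The table of NSCs lists 68 of them, that of ESCs lists 62, and 60 are in both, and each listed member passed the minimum mean of 10 used for testing. Dcc, Epha3, Epha5, Ntng1, Plxnb3, Robo2, Sema3d and Unc5d are listed for NSCs only, and Epha8 and Sema3g for ESCs only.

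The groups were NSCs and ESCs with a Tet triple knockout (TKO), each with 2 RNA-seq libraries, and NSCs and ESCs that were Tet wildtype (WT), each with 3. All were male cells of strain V6.5, a mixed 129/C57BL/6 background. ESCs had been freed of feeder cells by preplating and kept on gelatin with serum and LIF over 24 hours, while NSCs were collected at day 6 after 1 passage. TKO replicates 1 and 2 carry the codes tkc2 and tkh7 in both cell types. Each code may stand for a single clone, and the WT codes may stand for cultures of 1 line, so p-values measure the spread between these samples only, which may be technical. Promoter capture Hi-C, which lists contacts between promoter fragments and other DNA, covered 1 TKO and 1 WT library of NSCs.

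Growing axons and migrating neural cells read guidance cues through receptors on their surface. Ephrins are tethered to the membrane of neighbouring cells and bind Eph receptor tyrosine kinases, with ephrin-A ligands preferring EphA and ephrin-B ligands preferring EphB receptors. Semaphorins signal through plexins, and the secreted class 3 members mostly need a neuropilin as co-receptor. Slits repel axons through Robo receptors, and netrins attract through Dcc or repel through Unc5 receptors. Many of these genes also act outside the nervous system, in vessels, epithelia and mesenchyme.

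The libraries held between 41.0 and 49.1 M recovered reads. In NSCs the Tet3 level was 2379 and 2597 in TKO libraries, against 4050, 4089 and 4208 in WT libraries, and in ESCs the Tet1 level was 4635 and 4966 in TKO libraries, against 12237, 10599 and 9634 in WT libraries. Tet2 did not pass the test in NSCs (log2 change 0.14 ± 0.14 SE, adjusted p = 0.459), and counts over whole genes do not separate deleted from remaining exons. Levels here are normalised read counts, and fold changes are TKO over WT on the log2(value + 1) scale with their standard error (SE), tested in limma with adjusted p. They are not corrected for transcript length, so levels of different genes were not compared.

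In NSCs 39 of the 68 members (57.4%) differed between TKO and WT, with 22 higher and 17 lower in TKO. Of all 17744 genes tested 37.7% differed, 18.2% higher and 19.5% lower. The median log2 change was 0.10 over the members and 0.01 over all genes. A change of at least 1 on the log2 scale was found for 17 members, 9 higher and 8 lower, while 12.8% of all genes passed with a change of that size. The 2 TKO libraries lay both above or both below all 3 WT libraries for 38 of the 39 members, Slit1 being the exception, and for 6 of the 29 members that did not pass. Passing the test largely entails such a separation, and its share over all genes was not counted. The counts of separated libraries therefore show nothing particular to the members. In bulk RNA, fewer cells of a type and less RNA per cell cannot be told apart. Marker genes of other cell types moved with genotype in the same NSC libraries, and their part in the results on the members was not tested. The summed level of the 7 fibroblast and mesenchyme markers was 120911 to 142118 in TKO, against 46846 to 59341 in WT, with 6 of 7 higher and Col1a1 lower. The summed level of the 6 radial glia markers was 33946 to 41484 in TKO, against 87747 to 98422 in WT, with 5 of 6 lower. Neural crest markers summed to 8181 to 9648 in TKO and 3488 to 3902 in WT, with 4 of 5 higher, and epithelium and trophoblast markers to 4730 to 9217 in TKO and 2127 to 2652 in WT, with 3 of 5 higher. ESC markers summed to 2464 to 4337 in TKO NSCs and 974 to 1152 in WT NSCs, with 3 of 6 higher. Neuron markers summed to 14205 to 14405 in TKO and 15222 to 18624 in WT, with 1 of 9 higher and 3 lower. Oligodendrocyte lineage markers summed to 1142 to 1213 in TKO and 901 to 1043 in WT, with 0 of 4 passing the test. Astrocyte markers summed to 291 to 454 in TKO and 539 to 860 in WT, with 2 of 4 lower. Sox10, Tie1, Elf5 and the 3 blood and microglia markers are not listed for NSCs.

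**Figure D1:**
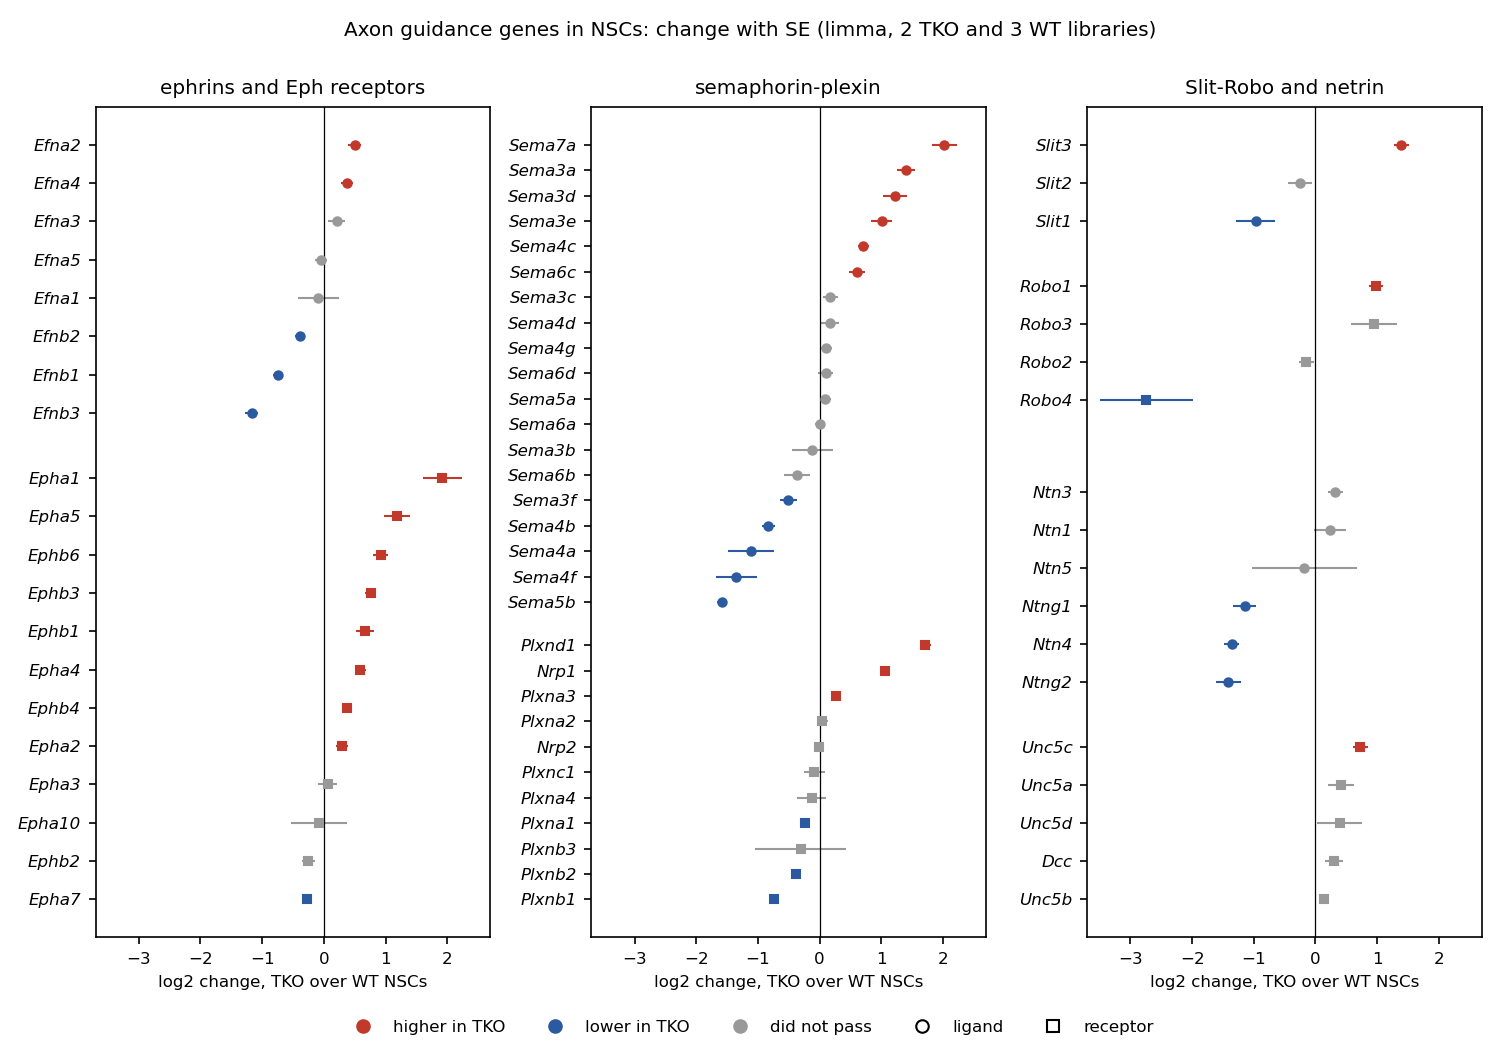
Log2 change in TKO over WT NSCs (horizontal axis, bars are SE) for the 68 members listed for NSCs, ligands as circles above receptors as squares in each system. Red and blue mark members that passed the test as higher or lower. The 3 ephrin-B genes are all blue, and 8 of the 12 Eph receptors are red.

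The promoters of the pair of members with the largest fall and the pair with the largest rise in NSCs, among those with a mean of at least 100, are shown because TET enzymes oxidise 5-methylcytosine, which in mammalian DNA sits mostly at CpG. Each is the 250 bases before a start site listed in RefSeq (GRCm38.p6), which need not be the outermost start of the gene. It is written 5′ to 3′ on the strand of the gene, with every CpG in capitals. CpG reads the same on both strands. Sema5b lies at chr16:35541112-35541361 on the plus strand, Ntng2 at chr2:29248100-29248349 on the minus strand, Sema7a at chr9:57939862-57940111 on the plus strand and Epha1 at chr6:42373269-42373518 on the minus strand. The annotated gene span begins at 57939596 for Sema7a and at 35541154 for Sema5b, and that of Epha1 ends at 42373314. The Sema7a window thus lies within its gene span, and the Sema5b and Epha1 windows lie partly within theirs.
Sema5b: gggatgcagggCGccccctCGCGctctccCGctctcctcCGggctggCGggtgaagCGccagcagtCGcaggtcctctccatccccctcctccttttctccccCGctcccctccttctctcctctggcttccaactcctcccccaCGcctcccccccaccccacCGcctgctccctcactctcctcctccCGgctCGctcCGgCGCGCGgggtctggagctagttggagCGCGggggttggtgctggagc
Ntng2: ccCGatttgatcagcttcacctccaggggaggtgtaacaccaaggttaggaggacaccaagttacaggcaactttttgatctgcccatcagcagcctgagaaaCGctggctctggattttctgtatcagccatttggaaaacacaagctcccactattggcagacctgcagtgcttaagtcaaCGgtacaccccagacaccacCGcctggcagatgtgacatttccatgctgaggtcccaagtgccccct
Sema7a: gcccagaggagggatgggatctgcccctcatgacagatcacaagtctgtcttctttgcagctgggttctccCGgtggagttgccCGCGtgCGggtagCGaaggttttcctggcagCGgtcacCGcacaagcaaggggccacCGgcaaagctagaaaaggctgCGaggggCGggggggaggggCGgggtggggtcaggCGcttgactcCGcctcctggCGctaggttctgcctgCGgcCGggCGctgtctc
Epha1: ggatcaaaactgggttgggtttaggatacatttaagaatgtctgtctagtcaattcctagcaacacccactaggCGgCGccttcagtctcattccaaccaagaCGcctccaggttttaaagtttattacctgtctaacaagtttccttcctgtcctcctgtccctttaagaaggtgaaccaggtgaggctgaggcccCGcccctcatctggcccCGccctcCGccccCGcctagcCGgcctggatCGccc
The Sema5b window holds 19 CpG, and 19.7% of all 32851 mouse promoters of that length hold at least as many. The Ntng2 window holds 4 (62.2% of promoters hold at least as many), the Sema7a window 17 (23.5%) and the Epha1 window 9 (40.3%), while the median over all promoters was 6. Each direction thus had a CpG-richer and a CpG-poorer window. Over the members with an entry, taking the richest start of each, the median was 13 for the 22 that rose in TKO NSCs, 20 for the 13 that fell and 18 for the 23 that did not pass. Methylation itself was not analysed here.

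Eph receptors were mostly higher and ephrin-B ligands lower in TKO NSCs. Of all genes tested 18.2% were higher and 19.5% lower. Of 12 Eph receptors 8 rose and 1 fell, and of 8 ephrins 2 rose and 3 fell. The 3 that fell are all the ephrin-B genes, whose products are transmembrane ligands of EphB receptors. Efnb3 had levels of 2835 and 3640 in TKO libraries, against 6448, 7300 and 7967 in WT libraries. Both TKO libraries lay well below every WT library, a log2 change of -1.17 ± 0.11 (SE, limma adjusted p = 1.08e-05). Efnb3 lies on chromosome 11, where the 100 nearest tested genes stood 0.58 and 0.60 log2 units higher in the TKO libraries than in WT. Centred on those neighbours, its change was -1.75 (adjusted p = 8.51e-07). Efnb1 fell by 0.74 (adjusted p = 2.80e-05) and Efnb2 by 0.39 (adjusted p = 0.00113) on the log2 scale.

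Epha1, an EphA receptor best known from epithelia, had levels of 677 and 375 in TKO NSCs, against 157, 167 and 88.4 in WT NSCs. The libraries did not overlap, and TKO replicate 1 was higher than TKO replicate 2. Its log2 change was 1.92 ± 0.32 (SE, limma adjusted p = 0.000698), and 1.49 without TKO replicate 1. Epha5, a receptor used in topographic mapping of the brain, had levels of 555 and 643 in TKO libraries, against 293, 199 and 312 in WT libraries. Again every TKO library was above every WT library, a log2 change of 1.18 ± 0.21 (SE, limma adjusted p = 0.00111). Among the EphB receptors, Ephb6, which lacks kinase activity, rose by 0.92, Ephb3 by 0.76, Ephb1 by 0.67 and Ephb4 by 0.37 on the log2 scale, while Ephb2 did not pass the test (-0.25, limma adjusted p = 0.091). Epha4, which binds both ephrin classes, rose by 0.59 and Epha2 by 0.30, whereas Epha7 fell by 0.27. The ephrin-A ligands Efna2 and Efna4 rose by 0.50 and 0.38, and Efna1, Efna3 and Efna5 did not pass the test (-0.09 to 0.21). Leaving out a library ended 4 of these calls, with log2 changes of the same sign. The Ephb1 call was lost without TKO replicate 2 (0.58, adjusted p = 0.0567), and that of Efna4 without TKO replicate 1 (0.29) or WT replicate 3 (0.29). The Epha2 call was lost without either TKO library (0.34 without replicate 1 and 0.26 without replicate 2) and without WT replicate 1 (0.33) or 3 (0.20), and with the replicate block (0.20). The Epha7 call was lost without TKO replicate 2 (-0.20), WT replicate 1 (-0.27) or WT replicate 3 (-0.22), with the block (-0.22), with equal totals (-0.23) and after centring on its neighbours (-0.18).

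In the semaphorin system 17 of 30 members listed for NSCs changed, 9 higher and 8 lower in TKO. That is 56.7% called, against 37.7% of all genes. Of 19 ligands 6 rose and 5 fell, and of 11 plexins and neuropilins 3 rose and 3 fell. Sema7a, a membrane-anchored semaphorin that promotes axon outgrowth and binds plexin C1 and integrins, had the largest rise of all members. Its level was 1020 and 814 in TKO NSCs, against 188, 279 and 214 in WT NSCs. Every TKO library was far above every WT library, with a fold change of 4.06 (log2 2.02 ± 0.20 SE, limma adjusted p = 1.49e-05). Its receptor Plxnc1 did not pass the test (-0.09 ± 0.17 SE, limma adjusted p = 0.72). Sema5b, a transmembrane semaphorin with thrombospondin repeats that can repel axons, fell the most in this system. Its level was 1741 and 1923 in TKO NSCs, against 5405, 5271 and 5831 in WT NSCs. The groups stood far apart and each varied little, with a log2 change of -1.59 ± 0.08 (SE, limma adjusted p = 8.54e-08). The related Sema5a did not pass the test (0.09, adjusted p = 0.474).

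The class 3 semaphorins Sema3a, Sema3d and Sema3e rose in TKO NSCs, and so did Nrp1 and Plxnd1, which are among the receptors of this class. The 4 A plexins did not rise as a set, with Plxna3 higher (0.26), Plxna1 lower (-0.23) and 2 that did not pass the test. Sema3a, the classic secreted repellent, had levels of 4022 and 2681 in TKO libraries, against 1354, 1177 and 1197 in WT libraries. Sema3d had levels of 536 and 473 in TKO libraries, against 207, 258 and 188 in WT libraries. For both genes the lower TKO library still stood above all WT libraries. The log2 changes were 1.40 ± 0.15 (SE, limma adjusted p = 2.03e-05) for Sema3a and 1.22 ± 0.20 (SE, limma adjusted p = 0.000544) for Sema3d. Nrp1, the neuropilin that Sema3a needs and also a co-receptor for vascular growth factors, had levels of 3147 and 3172 in TKO libraries, against 1479, 1597 and 1470 in WT libraries. The TKO libraries were almost equal and above every WT library, a log2 change of 1.06 ± 0.08 (SE, limma adjusted p = 2.49e-06). Plxnd1, a plexin that binds Sema3e without a neuropilin, had levels of 3933 and 4191 in TKO libraries, against 1205, 1313 and 1198 in WT libraries. The groups did not overlap, with a log2 change of 1.71 ± 0.09 (SE, limma adjusted p = 9.38e-08). Plxnd1 lies in a stretch of chromosome 6 whose tested genes stood 0.52 and 0.54 log2 units higher in the TKO libraries, and centred on them its change was 1.18 (adjusted p = 2.44e-06). Sema3e itself rose by 1.01 (limma adjusted p = 0.000698). Sema3d, Sema3a and Sema3e lie in this order on chromosome 5, with annotated spans that begin at 12383161, 13124822 and 14025276 (GRCm38.p6). Sema3c, whose span begins at 17574816 on the same chromosome, did not pass the test (0.17, adjusted p = 0.328). Sema3f fell by 0.51 (adjusted p = 0.0139), a call that ended without TKO replicate 2 (-0.29) or WT replicate 2 (-0.42), while its neuropilin Nrp2 did not pass the test (-0.01, adjusted p = 0.938).

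Of 6 class 4 semaphorins 3 fell and 1 rose, and of the 3 B plexins, which bind several of them, 2 fell. Sema4f had levels of 191 and 76.1 in TKO NSCs, against 283, 303 and 342 in WT NSCs. Sema4a, known for its role in retina and immune cells, had levels of 44.1 and 64.4 in TKO NSCs, against 96.1, 162 and 100 in WT NSCs. Neither gene's libraries overlapped between the groups, but both varied widely within a group. The log2 changes were -1.35 ± 0.33 (SE, limma adjusted p = 0.0079) for Sema4f and -1.11 ± 0.37 (SE, limma adjusted p = 0.0352) for Sema4a. The Sema4f call was lost without TKO replicate 2 (-0.69, adjusted p = 0.0615). The Sema4a call was lost on leaving out any single library, with changes between -1.38 without TKO replicate 2 and -0.84 without TKO replicate 1, and adjusted p up to 0.20. Sema4b fell by 0.83, and Plxnb1 and Plxnb2, receptors of class 4 semaphorins, fell by 0.74 and 0.38. Sema4c, a ligand of plexin B2, rose by 0.71 in contrast, and Sema4d and Sema4g did not pass the test (0.16 and 0.10). Sema6c rose by 0.60, a call lost without TKO replicate 1 (0.52, adjusted p = 0.0507), while Sema6a, Sema6b and Sema6d did not pass the test (-0.37 to 0.10). Of the A plexins, which bind class 6 semaphorins directly, Plxna3 rose by 0.26 and Plxna1 fell by 0.23. The Plxna3 call ended without either TKO library (0.28 without replicate 1 and 0.23 without replicate 2) and without WT replicate 1 (0.21) or 2 (0.24). The Plxna1 call ended without TKO replicate 1 (-0.17) or WT replicate 2 (-0.19).

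**Figure D2:**
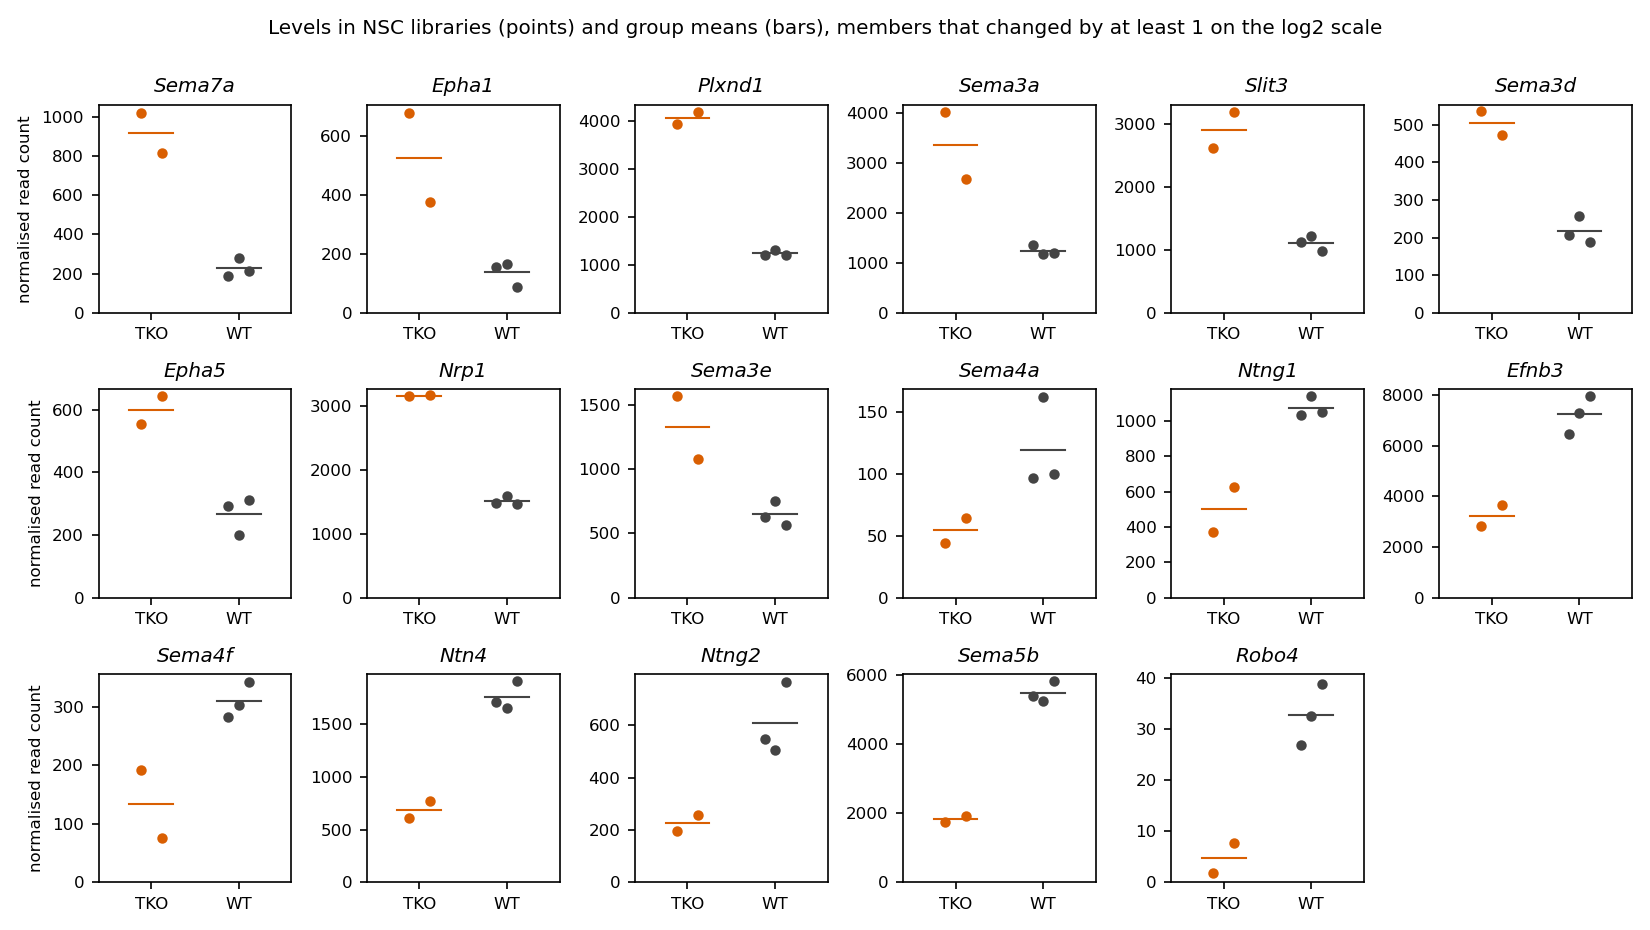
Normalised read count (vertical axes, each from 0) of the 17 members that passed the test and changed by at least 1 on the log2 scale in NSCs, with a point for each of the 2 TKO and 3 WT libraries and a bar for the group mean. In each panel the TKO points lie wholly above or wholly below the WT points.

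In the Slit and Robo system 2 of 7 members rose and 2 fell, which is 57.1% called, against 37.7% of all genes. Slit3, a secreted ligand of Robo receptors, had levels of 2612 and 3196 in TKO NSCs, against 1125, 1216 and 984 in WT NSCs. Both TKO libraries were above all WT libraries, a log2 change of 1.39 ± 0.12 (SE, limma adjusted p = 4.73e-06). It lies on chromosome 11, where its neighbours stood 0.49 and 0.52 log2 units higher in TKO, and centred on them its change was 0.88 (adjusted p = 0.000124). Robo1, a main Slit receptor of commissural axons, rose by 0.98 (limma adjusted p = 3.11e-05). Robo4, a Robo of endothelial cells, was near the limit of detection, with levels of 1.84 and 7.81 in TKO NSCs, against 26.9, 32.5 and 38.9 in WT NSCs. These rest on 2 and 8 recovered reads in TKO libraries, against 26, 30 and 40 in WT libraries. Robo4 thus had few reads in every TKO library and more in every WT library, a fitted log2 change of -2.74 ± 0.75 (SE, limma adjusted p = 0.0139). The call was lost without TKO replicate 1 (-1.92, adjusted p = 0.0696) or WT replicate 3 (-2.61, adjusted p = 0.0619). Of 5 endothelial markers listed for NSCs 3 were higher and 1 lower in TKO, and their summed level was 2583 to 2627 in TKO and 2126 to 2709 in WT.

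Slit1 rested on a single TKO library. Its level was 429 and 1246 in TKO NSCs, against 1217, 1533 and 1566 in WT NSCs, so that TKO replicate 2 lay within the WT range. The log2 change of -0.97 ± 0.32 (SE) passed with a limma adjusted p of 0.0354, but was -0.20 (adjusted p = 0.401) without TKO replicate 1. It was also lost without any single WT library (-1.08 to -0.90), with robust variance shrinkage, edgeR and DESeq2 (adjusted p of 0.277, 0.0852 and 0.29) and after centring on its neighbours (-0.91). Slit2 showed the same split between TKO libraries, at 6611 and 12512, against 10314, 12072 and 10080 in WT libraries, and did not pass the test (-0.25, limma adjusted p = 0.36). Robo3, which lets commissural axons cross the midline, stood at 431 and 343 in TKO NSCs, against 256, 102 and 296 in WT NSCs, and did not pass the test (0.95, limma adjusted p = 0.0696). Robo2 did not pass either (-0.15, adjusted p = 0.352).

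Among netrins and their receptors 1 of 11 members rose and 3 fell, which is 36.4% called, against 37.7% of all genes. The 3 that fell are ligands, 3 of the 6 tested. Ntng2 had levels of 195 and 257 in TKO NSCs, against 547, 507 and 766 in WT NSCs. Ntng1 had levels of 373 and 626 in TKO NSCs, against 1035, 1140 and 1050 in WT NSCs. These netrin-G proteins are anchored to the membrane and pair with the adhesion proteins of Lrrc4c and Lrrc4 rather than with Dcc or Unc5 receptors, and for both genes all TKO libraries lay below all WT libraries. The log2 changes were -1.41 ± 0.21 (SE, limma adjusted p = 0.000285) for Ntng2 and -1.15 ± 0.19 (SE, limma adjusted p = 0.000513) for Ntng1. Lrrc4, the partner of netrin-G2, fell by 0.74 (adjusted p = 0.00132), and Lrrc4c, the partner of netrin-G1, did not pass the test (-0.36, adjusted p = 0.398). Ntn4, a netrin of basement membranes, had levels of 606 and 771 in TKO NSCs, against 1711, 1657 and 1908 in WT NSCs. The groups stood apart, a log2 change of -1.36 ± 0.12 (SE, limma adjusted p = 7.51e-06).

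Ntn1, the founding netrin of the floor plate, differed widely between the TKO libraries. Its level was 15516 and 36637 in TKO NSCs, against 17020, 23032 and 21202 in WT NSCs, so that TKO replicate 1 was below and TKO replicate 2 above every WT library, and the test was not passed (0.24 ± 0.26 SE, limma adjusted p = 0.523). Of the receptors, Unc5c rose by 0.73 (limma adjusted p = 0.000764). Unc5a, Unc5b, Unc5d and Dcc did not pass the test, with log2 changes between 0.14 and 0.42, and neither did the ligands Ntn3 (0.32, adjusted p = 0.0532) and Ntn5 (-0.18, adjusted p = 0.892). The other members short of the threshold in NSCs were Epha3, Epha10, Plxna2, Plxna4, Plxnb3 and Sema3b, with log2 changes from -0.31 to 0.06.

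Co-receptors, further cues and intracellular effectors of guidance were examined as a list of 54 genes. Of 53 tested in NSCs, 15 were higher and 24 lower in TKO, against 18.2% and 19.5% of all genes, with a median log2 change of -0.24. In ESCs 8 of 50 were higher and 3 lower, against 7.29% and 7.02% of all genes, with a median of 0.03. The genes named next were chosen after their values were seen, from those with the largest changes in NSCs. Draxin, a secreted repellent that binds netrin and Dcc, fell by 2.71 (limma adjusted p = 6.39e-06) and the axonal adhesion protein Cntn2 by 1.77 (adjusted p = 0.000755). Chn2, a chimaerin that turns off Rac, rose by 1.17 (adjusted p = 0.000774), Rgmb, a ligand of the netrin receptor neogenin, by 1.03 (adjusted p = 1.11e-05) and Flrt2, a ligand of Unc5 receptors, by 1.02 (adjusted p = 2.56e-06).

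In ESCs 12 of the 62 listed members differed between TKO and WT, with 6 higher and 6 lower, against 14.3% of all 17033 genes tested, 7.29% higher and 7.02% lower. The median log2 change was -0.05 over the members and 0.01 over all genes. Only Sema5b and Efna2 passed the test with a change of at least 1, while 2.67% of all genes did so. Sema5b had levels of 422 and 694 in TKO ESCs, against 217, 179 and 160 in WT ESCs. Both TKO libraries were above all WT libraries, a log2 change of 1.55 ± 0.24 (SE, limma adjusted p = 0.000457). Efna2 had levels of 353 and 221 in TKO ESCs, against 460, 672 and 598 in WT ESCs. The groups did not overlap, with a log2 change of -1.02 ± 0.22 (SE, limma adjusted p = 0.0045), and the call was lost without TKO replicate 2 (-0.69, adjusted p = 0.113).

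The other ESC changes were smaller. Higher in TKO were Plxnd1 (0.83), Unc5b, a repulsive netrin receptor (0.70), Robo1 (0.60), Sema4d, a ligand of plexin B1 (0.48), and Sema4b (0.29). Lower in TKO were Sema6a, a transmembrane ligand of A plexins (-0.92), Efna3 (-0.71), Slit3 (-0.61), Epha1 (-0.59) and Ntn1 (-0.47). The 50 members that did not pass in ESCs had log2 changes from -1.16 for Efna1 (adjusted p = 0.064) to 1.20 for Epha10 (adjusted p = 0.211). Of the 12 calls, those of Sema5b, Sema6a and Unc5b were kept under every alternative run. The Plxnd1 change was 0.30 (adjusted p = 0.547) once centred on its neighbours, which stood 0.57 and 0.52 log2 units higher in the TKO libraries, and its call was also lost with the replicate block (0.75) and without either TKO library or WT replicate 2 or 3 (0.74 to 0.90). Without TKO replicate 2 the calls of Robo1 (0.26), Epha1 (-0.24) and Sema4d (0.44) were lost, and without TKO replicate 1 those of Ntn1 (-0.28) and Slit3 (-0.51). Leaving out WT replicate 2 ended the calls of Robo1 (0.61), Epha1 (-0.53) and Slit3 (-0.62), and leaving out WT replicate 3 those of Robo1 (0.52) and Slit3 (-0.62), and the block ended that of Robo1 (0.52). Efna3 lost its call on leaving out any single library (-0.78 to -0.65), with the block (-0.74) and after centring (-0.65). Sema4b lost its call with the block (0.27), after centring (0.23), with equal totals (0.27) and without any library but WT replicate 1 (0.23 to 0.35). In ESCs the summed ESC markers stood at 165092 to 192473 in TKO and 133861 to 154086 in WT, with 4 of 6 higher. Epithelium and trophoblast markers stood at 38268 to 39305 in TKO and 45415 to 49461 in WT, with 3 of 6 lower. Radial glia markers stood at 3984 to 4086 in TKO and 5276 to 5907 in WT. Of these 6 only Nes was lower (-0.66), and 5 did not pass the test. Neuron markers stood at 11433 to 12240 in TKO and 13824 to 15022 in WT, with 2 of 8 lower. Endothelium markers summed to 3114 to 4277 in TKO and 2088 to 2321 in WT, with Cdh5, Tie1 and Emcn not listed and 2 of 3 higher, and neural crest markers to 2601 to 2703 in TKO and 2032 to 2243 in WT, with 0 of 5 passing. The fibroblast markers overlapped, at 5442 to 8908 in TKO and 6107 to 7118 in WT. Their part was not tested.

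Of the 60 members in both tables, 7 passed the test in both cell types, and 5 of these went opposite ways. The matching counts over all genes were not made, so this split is not shown to be particular to the members. Among the ESC calls of these 7, only that of Sema5b was kept under every alternative run. Robo1 and Plxnd1 were higher in TKO in both, whereas Sema5b and Sema4b were lower in TKO NSCs and higher in TKO ESCs, and Epha1, Efna2 and Slit3 were higher in TKO NSCs and lower in TKO ESCs. A further 29 members passed in NSCs only and 5 in ESCs only, which by itself does not show a difference between the cell types. The difference itself, the NSC change minus the ESC change, was tested in limma for each gene. It passed for 20 of the 60 members, 12 positive and 8 negative, against 20.7% of 15369 genes, 10.9% positive and 9.81% negative.

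**Figure D3:**
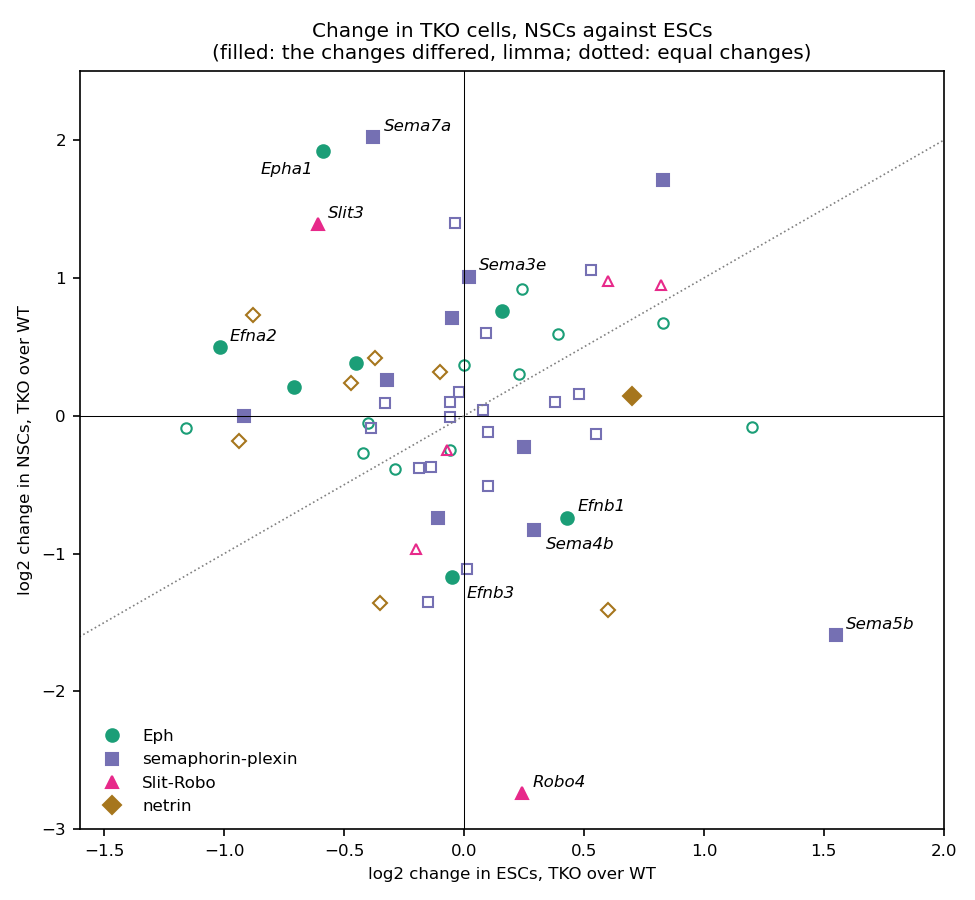
Log2 change in TKO over WT ESCs (horizontal axis) and NSCs (vertical axis) for the 60 members in both tables, by system. Filled symbols mark the 20 members whose changes differed between the cell types, and the dotted line marks equal changes. Sema5b lies at -1.59 in NSCs and 1.55 in ESCs, and Epha1, Sema7a and Slit3 lie at the upper left.

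Sema5b had the largest difference, -3.14 ± 0.26 (SE, limma adjusted p = 2.38e-06), and Slit3 went the other way at 2.00 ± 0.19 (SE, limma adjusted p = 7.49e-06). In ESCs the Slit3 level was 373 and 429 in TKO libraries, against 631, 603 and 603 in WT libraries. In that cell type all TKO libraries were thus below all WT libraries, opposite to their order in NSCs, although the chromosome 11 neighbours stood higher in TKO in ESCs too (0.22 and 0.47). Epha1 differed by 2.51 ± 0.41 (SE, limma adjusted p = 0.000659), with an ESC level of 1959 and 1214 in TKO libraries, against 2096, 2514 and 2362 in WT libraries. Sema7a differed by 2.40 ± 0.39 (SE, limma adjusted p = 0.000603), and its ESC level did not pass the test, at 111 and 110 in TKO libraries, against 122, 198 and 123 in WT libraries.

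Among the ephrin-A ligands the difference was positive for Efna2 (1.53, limma adjusted p = 0.00167), Efna3 (0.92) and Efna4 (0.83), while Efna1 (1.07, limma adjusted p = 0.217) and Efna5 (0.34, limma adjusted p = 0.596) did not pass. Among the ephrin-B ligands it was negative for Efnb1 (-1.16, limma adjusted p = 0.000259) and Efnb3 (-1.12, limma adjusted p = 0.00157), and Efnb2 (-0.09, limma adjusted p = 0.639) did not pass. It was also negative for Robo4 (-2.98, limma adjusted p = 0.0117) and Sema4b (-1.12, limma adjusted p = 8.05e-05), and positive for Sema3e (0.99, limma adjusted p = 0.00701). Sema6a (0.92), Plxnd1 (0.88), Sema4c (0.76), Ephb3 (0.60) and Plxna3 (0.57) were the other members with a positive difference, and Plxnb1 (-0.63), Unc5b (-0.56) and Plxna1 (-0.49) those with a negative one. The 10 largest differences all passed under every alternative run, though that of Robo4 rests on few reads in TKO NSCs. Without TKO NSC replicate 1 the calls of Efna3 (0.88), Efna4 (0.74), Plxna1 (-0.43), Plxna3 (0.60) and Plxnd1 (0.93) were lost, and without TKO NSC replicate 2 those of Plxna3 (0.55), Plxnd1 (0.84), Sema4c (0.71) and Unc5b (-0.51). Without TKO ESC replicate 2 those of Efna4 (0.68), Plxnd1 (0.82) and Sema4c (0.52) were lost, and without TKO ESC replicate 1 those of Plxna3 (0.35) and Unc5b (-0.36). Among WT libraries, NSC replicate 1 (0.53), NSC replicate 2 (0.55) and ESC replicate 2 (0.51) decided the Plxna3 call and NSC replicate 3 that of Unc5b (-0.53). The Plxna3 call was also lost with edgeR (0.53) and the Unc5b call after centring on neighbours (-0.50).

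**Figure D4:**
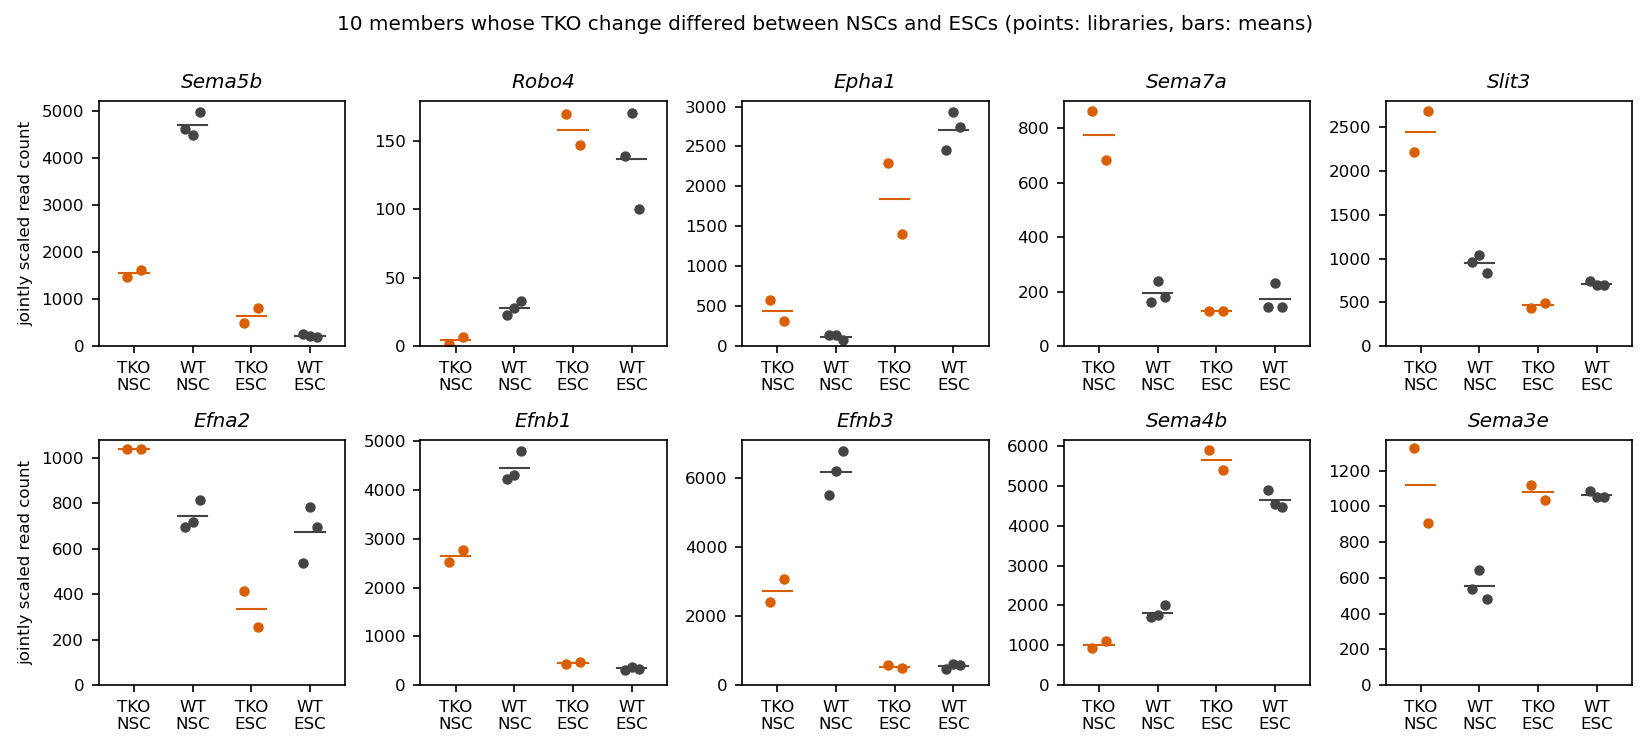
Jointly scaled read count (vertical axes, each from 0) in TKO NSC, WT NSC, TKO ESC and WT ESC libraries for the 10 members with the largest difference in TKO change between the cell types, points for libraries and bars for group means. Sema7a and Slit3 stand highest in TKO NSCs, and Sema5b highest in WT NSCs.

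To see where these changes fall in the step from ESC to NSC, recovered reads from the 10 libraries were put on a joint scale. In WT cells 52 of the 60 members differed between NSCs and ESCs, 44 higher and 8 lower in NSCs, against 75.3% of 15381 genes, 37.8% higher and 37.5% lower. In TKO cells 52 differed as well, again 44 higher and 8 lower, against 70.2% of all genes, 35.4% higher and 34.8% lower. The median log2 change over the members was 1.81 in TKO and 1.58 in WT, and 0.00 over all genes in both. With libraries scaled to equal totals instead, the median over all genes moved to 0.39 in TKO and 0.33 in WT, and that over the members to 2.20 in TKO and 1.90 in WT. Genes called higher and lower in TKO NSCs against ESCs then numbered 7069 and 3859, against 5439 and 5359 with the joint scaling, and those in WT 7208 and 4544, against 5815 and 5769. Members then split into 47 higher and 6 lower in TKO, and 46 higher and 7 lower in WT.

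The 5 members with the largest rise in WT were the ligands Ntn4, Sema6d, Slit2 and Sema3a and the receptor Ephb1. Ntn4 stood at 513 and 649 in TKO NSCs, against 31.9 and 13.3 in TKO ESCs, and at 1412 to 1626 in WT NSCs, against 13.4 to 39.8 in WT ESCs. Its log2 change was 4.73 ± 0.47 in TKO and 5.76 ± 0.39 in WT (SE, limma adjusted p = 4.24e-07 in TKO and 3.40e-09 in WT). In both genotypes the NSC libraries lay far above the ESC libraries. Sema6d, a ligand of plexin A1, stood at 1685 and 1252 in TKO NSCs, against 29.4 and 28.9 in TKO ESCs, and at 1279 to 1456 in WT NSCs, against 16.4 to 51.4 in WT ESCs. Slit2 stood at 5598 and 10526 in TKO NSCs, against 250 and 200 in TKO ESCs, and at 8590 to 10286 in WT NSCs, against 199 to 283 in WT ESCs. The log2 changes were 5.59 in TKO and 5.44 in WT for Sema6d, 5.09 in TKO and 5.29 in WT for Slit2, 4.89 in TKO and 5.07 in WT for Ephb1, and 6.19 in TKO and 4.76 in WT for Sema3a. The ESC levels of Ntn4, Sema6d, Ephb1 and Sema3a were low in both genotypes, and the pseudocount of 1 understates their changes.

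Epha1 had the largest negative change in WT. It stood at 573 and 315 in TKO NSCs, against 2291 and 1404 in TKO ESCs, and at 75.3 to 142 in WT NSCs, against 2458 to 2927 in WT ESCs. The log2 change was -2.07 ± 0.32 in TKO and -4.57 ± 0.26 in WT (SE, limma adjusted p = 3.58e-05 in TKO and 5.35e-10 in WT). The change of Sema4d was -2.71 in TKO and -2.39 in WT, that of Epha2 -1.82 in TKO and -1.87 in WT, and that of Sema4a -2.75 in TKO and -1.63 in WT. Robo4 changed by -5.18 in TKO and by -2.23 in WT. Sema5b rose by 1.29 ± 0.20 in TKO and by 4.44 ± 0.16 in WT, and Slit3 by 2.39 ± 0.15 in TKO and by 0.40 ± 0.12 in WT (SE, limma). Sema7a rose by 2.57 ± 0.30 in TKO (SE, limma adjusted p = 2.16e-06) and did not pass the test in WT (0.19 ± 0.24 SE, limma adjusted p = 0.502). None of the members named in this comparison turned its direction with libraries scaled to equal totals. The radial glia markers, a list chosen here and not given by the labels, stood at 33946 to 41484 in TKO and 87747 to 98422 in WT NSCs in their own table. The ESC markers stood at 165092 to 192473 in TKO and 133861 to 154086 in WT ESCs in theirs. All 6 radial glia markers were higher in NSCs than in ESCs in WT, whereas in TKO 4 were higher, 1 was lower and 1 did not pass. In TKO over WT NSCs Pax6 fell by 4.33 and Sox1 fell by 2.02 on the log2 scale (limma adjusted p = 2.02e-06 for Pax6 and 2.15e-07 for Sox1). The summed fibroblast and mesenchyme markers stood at 120911 to 142118 in TKO NSCs, against 46846 to 59341 in WT NSCs.

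**Figure D5:**
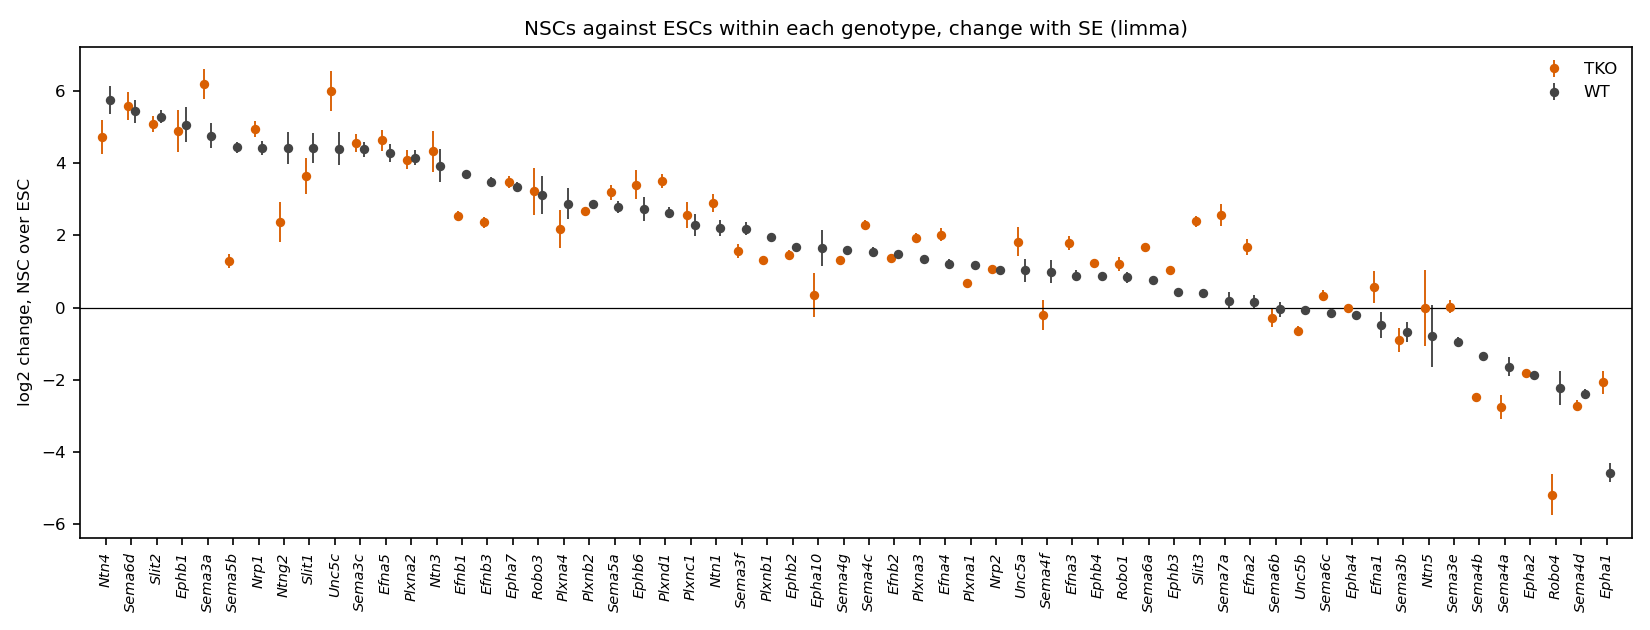
Log2 change in NSCs over ESCs (vertical axis, bars are SE) for the 60 members in both tables, in TKO and in WT, ordered by the WT change. Most members lie above 0 in both genotypes. Sema5b, Efnb1 and Efnb3 lie lower in TKO, and Sema7a, Slit3 and Epha1 lie higher.

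Promoter contacts were listed for NSCs in 1 library per genotype, so no test was made. Of 60 members with a start site in the RefSeq promoter table, 48 had at least 1 listed loop on the fragment that holds the start. They had 178 loops in TKO and 193 in WT, so that 48.0% of the member loops were in the TKO list (95% Wilson interval 42.9 to 53.1, counting error only), against 49.3% of all 58145 TKO and 59754 WT loops. Of these, 62 loops stood in both lists, 34.8% of the TKO and 32.1% of the WT loops of members, against 28.5% and 27.8% of all loops in TKO and WT. With only loops of an authors' score of at least 8, members had 48 loops in TKO and 67 in WT, or 41.7% in the TKO list, against 48.0% for all loops of that score. With loops of any listed score, 18 members had more loops in TKO, 23 had fewer and 7 had equal numbers. At a score of at least 8 these numbers were 10, 17 and 2.

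Loop numbers were set beside the expression calls. The 18 members with a loop that rose in TKO NSCs had 82 loops in TKO and 91 in WT, the 11 that fell had 40 in TKO and 39 in WT, and the 17 that did not pass had 52 in TKO and 59 in WT. Ephb3 had the most, 22 in TKO and 23 in WT with 11 in both lists. Sema5b, whose RNA was lower in TKO, had 12 loops in TKO and 13 in WT with 5 in both, and Sema7a, whose RNA was higher, had the same 2 loops in both. Slit3 had 10 in TKO and 6 in WT, Epha1 4 in TKO and 7 in WT, and Plxnb2 8 in TKO and 4 in WT. Efna2 had 0 in TKO and 10 in WT, and in a list of loops above a minimum score a count of 0 does not show that no contact was made.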

How the data were processed

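RNA-seq was analysed in 10 libraries and promoter capture Hi-C in 2, and the 20 CUT&Tag and 4 bisulfite samples were not analysed here. The RNA-seq values are a deposited signal: read counts per gene that the authors divided by DESeq2 size factors, per the labels, in a separate table for each cell type. Per the submitters' processing notes, they used STAR 2.7.3a, Trim Galore 0.6.5, DESeq2 1.40.2 and featureCounts with build mm10. Values were whole multiples of a step per library, so that whole reads were recovered for 100% of them within a tolerance of 1e-06, and 75.2% to 82.7% of counts up to 20 reads were even, as when both mates of a pair are counted. 0 columns were left unused. Strand-specific counting is neither stated nor denied in the notes, and overlapping antisense genes may share reads. For Hi-C, the deposited lists give each loop with a score that is the authors' own value.

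Within each table TKO was compared with WT by limma 3.58.1 (trend, two-sided) on log2(value + 1) of genes averaging at least 10, with Benjamini-Hochberg adjustment over all of them and a threshold of 0.05. The difference between cell types was tested as an interaction on the table values of genes in both. NSCs and ESCs were compared on recovered reads of the 10 libraries scaled together by the median of ratios. Chromosomal neighbourhoods were taken as the 100 nearest tested genes, with positions for 91.2% of genes from GRCm38.p6. The tests were checked on simulated counts. For TKO against WT in NSCs, limma recovered 83.8% of 99 genes changed by 1 and 99% of 100 genes changed by 2 on the log2 scale. For the difference between cell types it recovered 50% and 95.0%. False calls made up 3.7% of limma calls for TKO against WT in NSCs, 5.18% in ESCs and 2.74% for the difference. For NSCs against ESCs they made up 7.33% in TKO and 3.12% in WT. The simulation gave all genes the same dispersion and changed few of 15306 genes, so these shares need not hold in the data. Pairing of same-numbered libraries was checked and not found, with correlations of deviations from the group means between -0.03 and 0.03. edgeR 4.0.16, DESeq2 1.42.0 and the other alternatives are given in the closing section.

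Members were given values in every library where they passed the threshold with a change of at least 1, up to the 5 largest per system and direction in each TKO against WT comparison, while other calls were named with their change. For the interaction the 10 largest were named, and for NSCs against ESCs the 5 largest in each direction in WT. Promoters were printed for the 2 largest falls and rises in NSCs with a mean of at least 100. 1 gene of the list of co-receptors and effectors is not reported here by name. Members, systems and gene lists were chosen with earlier results of these data known.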

Additional observations from a re-analysis of the deposited data

Results flagged for a closer look

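For 10 members the change in TKO over WT differed between NSCs and ESCs by the limma test of the difference itself. The NSC change minus the ESC change, on the log2 scale, was -3.14 for Sema5b, -2.98 for Robo4, 2.51 for Epha1, 2.40 for Sema7a, 2.00 for Slit3, 1.53 for Efna2, -1.16 for Efnb1, -1.12 for Efnb3, -1.12 for Sema4b and 0.99 for Sema3e. They are the 10 largest of 20 such differences among 60 members. That of Robo4 rests on 2 and 8 recovered reads in TKO NSCs, against 26, 30 and 40 in WT NSCs. In the same libraries the summed fibroblast, radial glia and neural crest markers moved with genotype in NSCs, and their part in these differences was not tested. Groups of 2 and 3 libraries are too small for a check of single libraries that stand apart.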

How the results depend on the processing

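Counts of called members kept within 1.5 times of their value under other pseudocounts, no filter, equal totals, robust shrinkage, edgeR, DESeq2 and the replicate block in all 5 comparisons, under neighbour centring in the 3 that involve genotype, and under a joint scale for the difference between cell types. Where a left-out library leaves 1 in a group, that library is assumed to vary like the others. ESC calls depended on single libraries. Leaving out 1 library gave 5 to 15 called members (12 with all) and 1066 to 2275 called genes (2437 with all), with 5 members without TKO replicate 2, 6 without WT replicate 2 and 7 without WT replicate 3. In NSCs the ranges were 33 to 35 members (39 with all) and 4787 to 5888 genes (6698 with all). For the difference between cell types they were 16 to 22 members (20 with all) and 2092 to 3308 genes (3177 with all), the fewest members without TKO NSC replicate 2 and the fewest genes without TKO NSC replicate 1. For NSCs against ESCs they were 51 to 52 members in TKO and 50 to 52 in WT. With the replicate block, 42 members passed in NSCs and 8 in ESCs, though same-numbered libraries did not deviate together. Every setting was passed by 27 of the 39 NSC calls, 3 of the 12 ESC calls and 13 of the 20 differences, and no called member changed direction. The share of member loops in the TKO list was 41.7% at a score of at least 8, against 48.0% with all loops. With 2 TKO libraries in each comparison, changes of low genes such as Ntn5 and Plxnb3 in NSCs had standard errors of 0.85 and 0.74, larger than the changes themselves.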
